A study of Mus musculus with 12 samples.

Results

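A set of genes that handle iron and heme were followed in RAW264.7 cells, a murine macrophage line, under mechanical compression. They were taken by symbol (Hmox1, Blvrb, Fth1, Ftl1, Tfrc, Steap3, Slc11a2, Slc11a1, Slc40a1 and Ireb2), and 10 of 10 were found among the 56941 gene IDs of the count table. All 10 passed the filter on low counts, as did 15001 genes in all. The compressed group was 6 samples of cells grown on a porous insert and pressed for 24 h by an agarose cushion carrying a printed weight, which put 0.14 kPa on them. The control group was 6 samples under the cushion alone for the same 24 h (0 kPa applied). Both groups were the same line in the same medium, and mRNA was sequenced with directional libraries. Whether a group's samples were separate cultures is not said in the sources used here. The p-values therefore rest on a spread that may be technical in part.

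Macrophages take up heme and iron from the red cells they engulf and return the iron to the body. Heme oxygenase opens the heme ring, releasing iron, carbon monoxide and biliverdin, and the iron is then stored in ferritin or leaves through ferroportin. Iron regulatory proteins tie these steps together: when iron is scarce they bind a hairpin in the mRNA, the iron-responsive element. Bound ahead of the coding sequence, as in the ferritins and ferroportin, they block translation, and bound behind it, as in the transferrin receptor, they protect the mRNA from decay. Counts of mRNA do not measure translation.

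The hairpins are shown because they set apart the members with an annotated transcript that matches an iron-responsive element. Transcripts of the GENCODE M21 annotation (GRCm38) were searched on the transcript strand for C, 5 bases, the loop CAGTGN and 5 bases that pair with the first 5, with G and T also taken as a pair. A looser form allowed 1 unpaired base in the 3′ strand of the stem. At least 1 transcript held the first form in 294 of 21901 coding genes (1.34%) and the looser form in 754 (3.44%). Of the 10 members, 5 had a match in an untranslated region. In the sequences below, written 5′ to 3′ in the DNA alphabet, capitals mark the loop.
Fth1 5′UTR: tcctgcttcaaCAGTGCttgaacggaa
Ftl1 5′UTR: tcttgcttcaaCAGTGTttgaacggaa
Slc40a1 5′UTR: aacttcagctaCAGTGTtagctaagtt
Slc11a2 3′UTR: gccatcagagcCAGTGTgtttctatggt
Tfrc 3′UTR, element 1: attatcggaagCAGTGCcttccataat
Tfrc 3′UTR, element 2: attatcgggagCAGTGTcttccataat
Tfrc 3′UTR, element 3: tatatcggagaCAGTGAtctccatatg
Tfrc 3′UTR, element 4: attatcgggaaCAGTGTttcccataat

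The elements of Fth1 (chr19:9982733-9982759, plus strand, exon 1 of 4), Ftl1 (chr7:45459780-45459806, minus strand, exon 1 of 4) and Slc40a1 (chr1:45925466-45925492, minus strand, exon 1 of 8) lie in the first exon, ahead of the coding sequence. The 4 elements found in Tfrc lie in its last exon, exon 19 of 19, on the plus strand at chr16:32631220-32631246, chr16:32631599-32631625, chr16:32631664-32631690 and chr16:32631711-32631737. An element with another loop or stem would have been missed, so the number found in a gene may not be complete. The Slc11a2 match (chr15:100395153-100395180, minus strand) is of the looser form and lies in the last exon, exon 16 of 16, of a transcript other than the principal one. Counts are per gene, so its transcripts could not be told apart. The search found no match in Hmox1, Blvrb, Steap3, Slc11a1 and Ireb2, which says only that these letters are not in their annotated transcripts.

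Libraries held 33460807 to 39103987 counts in the compressed group and 37948795 to 40463545 in the control group. Of 10 macrophage markers, 9 were above 1 CPM in every library (Mertk was not), where CPM is the counts-per-million level over the library size scaled by TMM. The summed level of the 10 was 6903 to 8241 CPM in compressed and 5703 to 6135 CPM in control libraries. The part of this difference in the results was not tested. Of 8 erythroid markers, 6 were at 0 in every library, Alas2 and both beta globins among them, and the summed level of all 8 was at most 0.457 CPM. Fibroblast, epithelial and B cell markers summed to less than 1 CPM in each library, and of the endothelial and T cell markers only Vwf and Lck were above 1 CPM in every library, with Cd3e and Cd8a at 0. Compressed replicate 6 stood apart from the other compressed libraries by transcript length. Its median log2 difference from them was 0.58 over genes with transcripts of up to 1388 bases. Over those of 3982 bases or more it was -0.59. Each of the other 5 was at -0.16 to -0.037 and 0.058 to 0.16 from the rest of its group. That rest includes replicate 6, which therefore enters these values. The log2 fold changes of the 10 genes and the counts by list are therefore given with and without it. Those of other genes are given without it where they move by a factor of more than 1.5.

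Of the 10 genes, 7 were higher and 2 lower in compressed cells at an adjusted p of 0.05 or less, and Ireb2 did not pass the test. The adjusted p-values come from edgeR's quasi-likelihood F test with Benjamini-Hochberg adjustment over all 15001 genes. Over all genes tested, 46.4% were called, 24.5% higher and 21.9% lower. The median log2 fold change of the 10 was 0.47, beside 0.022 over all tested genes. Over the 69 other tested genes of the wider iron and heme lists, described below, it was -0.10. The 10 were chosen with earlier results of these data known, so their counts and median are no test of the set. Without compressed replicate 6 the same test also called 7 of the 10 higher and 2 lower, where 66.0% of 15117 genes were called, 33.8% higher and 32.2% lower. With any 1 control, compressed replicate 1 or compressed replicate 2 left out, 6 of the 10 were called higher and 1 lower. In those fits 6385 to 6587 genes were called over all genes, beside 6960 with all 12 libraries. RNA was pooled over all cells of a sample, so a change in each cell and a change in the share of cells that make the RNA cannot be told apart. The groups did not overlap in 6 of the 10 genes, as in 33.6% of all tested genes. In 5 of these every compressed library lay above every control (16.5% of tested genes), and in Steap3 every one lay below. They did not overlap in 7 of the 10 without compressed replicate 6, Slc40a1 being added, where 49.9% of tested genes did not.

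**Figure D1:**
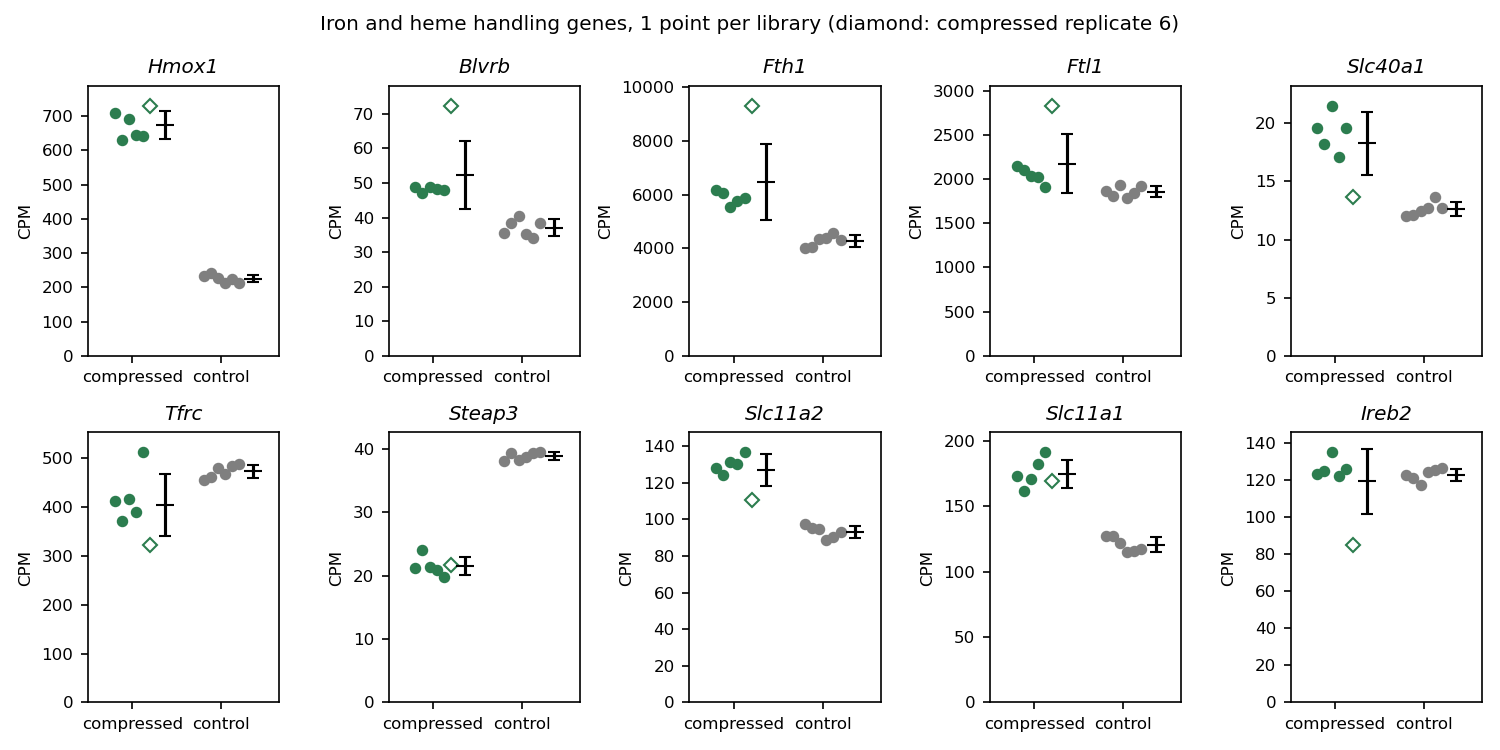
Level of each gene in CPM on linear axes from 0, with 1 point per library, compressed left of control, an open diamond for compressed replicate 6 and a bar for the mean and SD (n = 6 each). Hmox1 was 629 to 730 CPM in compressed and 213 to 241 CPM in control libraries, and the diamond lies apart from its group in Fth1, Ftl1, Blvrb and Ireb2.

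Heme breakdown was led by Hmox1, the inducible heme oxygenase, which catalyses the rate-limiting step and had the largest change of the 10. Hmox1 had a lowest, median and highest value of 629, 669 and 730 CPM in compressed cells and of 213, 226 and 241 CPM in controls. Even the lowest compressed library was far above the highest control, and the groups did not overlap. The means were 675 ± 41.6 CPM in compressed and 225 ± 10.9 CPM in control cells (SD, n = 6 each), a 3.00-fold difference with a log2 fold change of 1.58 (SE 0.053, adjusted p = 1.74e-10). By log2 fold change Hmox1 ranked 292 of 15001 tested genes, and 28 of the 2574 with a mean of at least 100 CPM. Without compressed replicate 6 its log2 fold change was 1.56 (adjusted p = 7.75e-17).

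Blvrb encodes biliverdin reductase B. Its lowest, median and highest values were 47.1, 48.5 and 72.3 CPM in compressed cells and 34.2, 36.9 and 40.5 CPM in controls. The groups did not overlap, and 5 compressed libraries lay within 47.1 to 48.9 CPM with replicate 6 alone at 72.3 CPM. Blvrb rose 1.41-fold (log2 fold change 0.50, SE 0.10, adjusted p = 0.00109), and without compressed replicate 6 the log2 fold change was 0.38 (adjusted p = 3.82e-08). Hmox2, the constitutive heme oxygenase, did not pass the test. Its mean was 72.8 ± 13.1 CPM in compressed and 70.9 ± 2.02 CPM in control cells, with a log2 fold change of 0.038 (95% interval -0.16 to 0.24, adjusted p = 0.765) and, without compressed replicate 6, of -0.072 (adjusted p = 0.0522). With library size as the sole scaling the value was also below 0, at -0.026. Within a library there were 7.36 to 10.7 counts of Hmox1 for each count of Hmox2 in compressed cells and 2.86 to 3.41 in controls, a ratio that no scaling between libraries can change, and the groups did not overlap.

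Ferritin, the iron store, is a shell of heavy chains (Fth1), which oxidise the iron, and light chains (Ftl1), which help it to mineralise. Fth1 had a lowest, median and highest value of 5548, 5977 and 9301 CPM in compressed cells and of 4019, 4335 and 4561 CPM in controls. The groups did not overlap, and compressed replicate 6 lay above the other 5, which reached 6191 CPM. Fth1 rose 1.51-fold (log2 fold change 0.59, SE 0.11, adjusted p = 0.000612), or by 0.46 on the log2 scale without compressed replicate 6 (adjusted p = 1.17e-09). Fth1 alone took 0.542% to 0.896% of all counts in compressed and 0.410% to 0.468% in control libraries.

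Ftl1 moved less, with a lowest, median and highest value of 1905, 2065 and 2826 CPM in compressed cells and of 1784, 1856 and 1927 CPM in controls. The groups overlapped: 5 compressed libraries lay above every control, and 2 controls lay above the lowest compressed library. Ftl1 rose 1.17-fold (log2 fold change 0.23, SE 0.083, adjusted p = 0.0382). Without compressed replicate 6, at 2826 CPM the highest library, the log2 fold change was 0.13 (adjusted p = 0.0011). The call was lost when any 1 of the 6 controls, compressed replicate 1 or compressed replicate 2 was left out (adjusted p 0.0536 to 0.0771, log2 fold change 0.21 to 0.24).

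Each library held 2.73 to 3.29 counts of Fth1 for each count of Ftl1 in compressed cells (2.95 ± 0.203, SD, n = 6) and 2.15 to 2.48 in controls (2.30 ± 0.132, SD, n = 6). The ranges did not overlap, with or without compressed replicate 6, so the mRNA counts of the 2 chains changed unequally. Ferritin genes have processed copies elsewhere in the genome that can share reads with them. Of 14 other rows named as ferritin copies or relatives, 5 held counts. Copies of the heavy chain held 690 counts, 0.0289% of those of Fth1 (0.0299% in compressed and 0.0274% in control libraries). Those of the light chain held 17042, 1.88% of those of Ftl1 (1.86% in compressed and 1.91% in control libraries). How the authors' counting treated reads that fit several copies is not given in the sources used here, so the ferritin values are uncertain by that much or more. Ftl1 also overlaps Gm22133, a microRNA gene on the same strand, and Gm10252 on the other strand, which held 104 counts beside 904316 for Ftl1.

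Tfrc, the transferrin receptor, brings transferrin-bound iron into the cell. The lowest, median and highest values of Tfrc were 322, 401 and 511 CPM in compressed cells and 456, 474 and 489 CPM in controls. Compressed libraries were spread more widely than controls: 5 lay below every control, with replicate 6 the lowest, and replicate 5 lay above every control. Tfrc fell by 14.5% (log2 fold change -0.23, SE 0.086, adjusted p = 0.0461), and without compressed replicate 6 the log2 fold change was -0.17 (adjusted p = 0.0115). Without compressed replicate 5 the log2 fold change was -0.30 (adjusted p = 0.00208), and leaving out any 1 of the 6 controls or of compressed replicates 1 to 4 lost the call (adjusted p 0.0599 to 0.0886, log2 fold change -0.24 to -0.21).

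Steap3 encodes the endosomal ferrireductase that reduces the iron released from transferrin, a step described in red cell precursors of the mouse. Steap3 had 19.8, 21.2 and 24.0 CPM (lowest, median and highest) in compressed cells and 38.0, 39.0 and 39.4 CPM in controls. All compressed libraries lay below all controls, with a gap larger than the spread of either group. Steap3 fell by 44.7% (log2 fold change -0.85, SE 0.047, adjusted p = 7.93e-09), and the log2 fold change was -0.86 without compressed replicate 6. It was the only one of the 10 whose compressed libraries all lay below the controls.

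Slc11a2 encodes DMT1, the transporter that carries reduced iron out of the endosome. Its lowest, median and highest values were 111, 129 and 137 CPM in compressed cells and 88.8, 93.9 and 97.5 CPM in controls, with no overlap. Slc11a2 rose 1.36-fold (log2 fold change 0.44, SE 0.053, adjusted p = 1.08e-05). It overlaps Gm5475 on the other strand, which held 3 counts beside 48993 for Slc11a2. Slc11a1 encodes NRAMP1, a related transporter of the phagosome of macrophages that, where functional, limits metal supply to engulfed microbes. Whether the protein works in this cell line was not tested. Slc11a1 mRNA had 162, 172 and 191 CPM (lowest, median and highest) in compressed cells and 115, 120 and 128 CPM in controls, again with no overlap. Slc11a1 rose 1.45-fold (log2 fold change 0.53, SE 0.051, adjusted p = 1.46e-06). Without compressed replicate 6 the log2 fold changes were 0.48 for Slc11a2 and 0.54 for Slc11a1. Of the 4 genes of iron entry, then, the mRNAs of both metal transporters were higher, and those of the receptor and the reductase were lower. Transport was not measured.

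Slc40a1 encodes ferroportin, the only known exporter of iron from mammalian cells. Slc40a1 had 13.7, 18.9 and 21.5 CPM (lowest, median and highest) in compressed cells and 12.0, 12.6 and 13.7 CPM in controls. The groups met at a single point, since compressed replicate 6 lay just under the highest control and the other 5 compressed libraries were at 17.1 CPM or more. Slc40a1 rose 1.45-fold (log2 fold change 0.53, SE 0.091, adjusted p = 0.000263), and without compressed replicate 6 the log2 fold change was 0.60 (adjusted p = 5.14e-09) and the groups did not overlap. The ratio of the receptor to the exporter was lower: each library held 19.4 to 26.1 counts of Tfrc for each count of Slc40a1 in compressed cells (22.2 ± 2.44, SD, n = 6) and 35.4 to 38.6 in controls (37.5 ± 1.23, SD, n = 6), with no overlap.

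**Figure D2:**
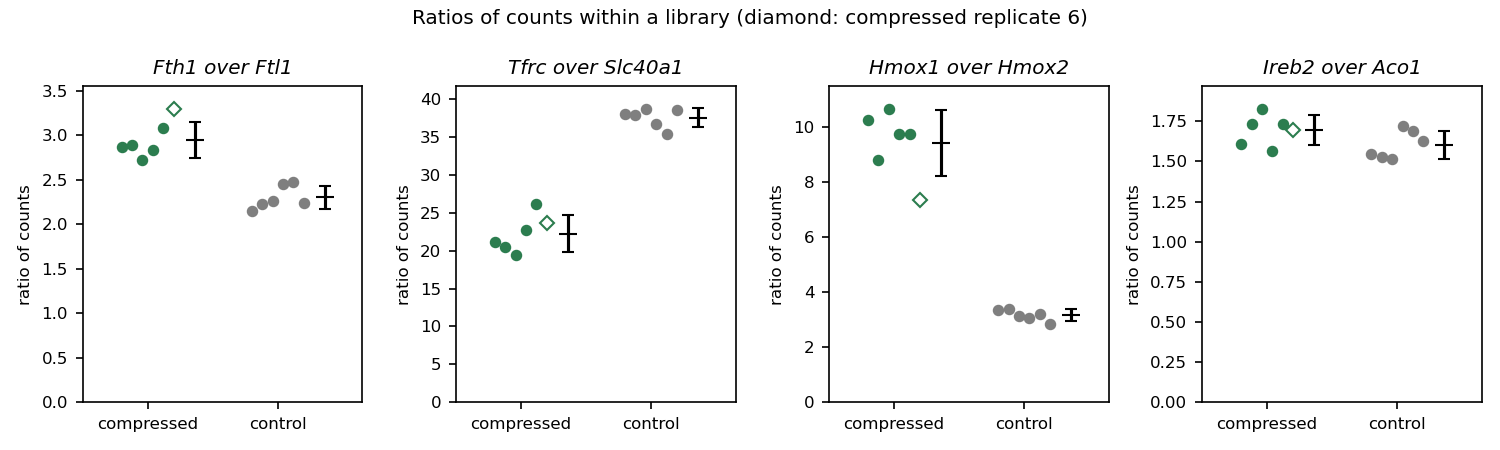
Ratio of the counts of a pair of genes within each library, on linear axes from 0, with compressed left of control, an open diamond for compressed replicate 6 and a bar for the mean and SD (n = 6 each). The groups do not overlap for Fth1 over Ftl1 (2.73 to 3.29 in compressed, 2.15 to 2.48 in control), Tfrc over Slc40a1 or Hmox1 over Hmox2, and they overlap for Ireb2 over Aco1.

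Ireb2 encodes iron regulatory protein 2, which binds the elements shown above and is itself degraded when iron is plentiful. Its lowest, median and highest values were 84.9, 124 and 135 CPM in compressed cells and 118, 124 and 127 CPM in controls. The medians were close and the groups overlapped, with replicate 6 far below the other 5 compressed libraries, which held 122 CPM or more. Ireb2 did not pass the test (log2 fold change -0.042, 95% interval -0.23 to 0.15, adjusted p = 0.724). Without compressed replicate 6 the value was 0.037 (95% interval -0.027 to 0.10, adjusted p = 0.303). Aco1, the aconitase that doubles as iron regulatory protein 1, did not pass either, with a mean of 70.6 ± 10.4 CPM in compressed and 76.9 ± 3.00 CPM in control cells (SD, n = 6 each; log2 fold change -0.12, 95% interval -0.32 to 0.073, adjusted p = 0.294). Its log2 fold change was -0.042 without compressed replicate 6 (adjusted p = 0.272). Each library held 1.56 to 1.82 counts of Ireb2 for each count of Aco1 in compressed cells and 1.51 to 1.72 in controls, ranges that overlap. These are mRNA levels and do not measure the binding of either protein.

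**Figure D3:**
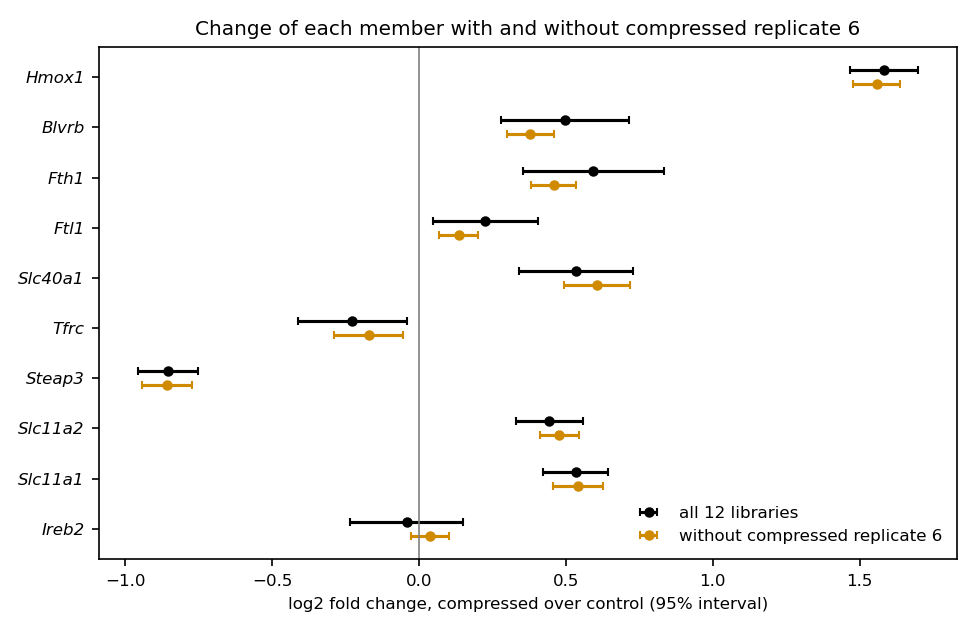
Log2 fold change of each gene, compressed over control, with its 95% interval, from all 12 libraries (black) and without compressed replicate 6 (orange). Hmox1 lies at 1.58 and 1.56, Steap3 at -0.85 and -0.86, and the interval of Ireb2 spans 0 in both fits.

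The genes with a match to an iron-responsive element did not all move in 1 direction. Of the 3 with an element ahead of the coding sequence, Fth1 and Slc40a1 rose 1.51- and 1.45-fold and Ftl1 rose 1.17-fold. Of those with a match behind it, Tfrc fell and Slc11a2 rose. The calls of Tfrc and Ftl1 were kept in 8 and 10 of the 21 alternatives described below. The Slc11a2 match is of the looser form, in a transcript other than the principal one, so whether the counted mRNA carries it is not known. The largest changes in each direction, those of Hmox1 and Steap3, were in genes without a match.

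In CPM per kilobase of transcript the 10 spanned a wide range of levels. The length used was that of 1 annotated transcript per gene. Which transcripts the cells express was not determined, so comparisons between genes hold only for those lengths. Fth1 was the highest, at 6952 in compressed and 4607 in control cells (mean, n = 6 each), followed by Ftl1 at 2246 and 1920 and Hmox1 at 430.0 and 144. Tfrc (82.6 and 96.6), Slc11a1 (75.6 and 52.2), Blvrb (50.8 and 36.0), Slc11a2 (42.0 and 30.9) and Ireb2 (20.7 and 21.3) came next, in that order of level in both groups. Slc40a1 (5.42 and 3.74) and Steap3 (4.16 and 7.53) were the lowest, and their order differed between the groups: Slc40a1 had the higher mean in compressed cells and Steap3 in controls. That difference in order rests on the lengths used, 3370 bases for Slc40a1 and 5158 for Steap3. By CPM alone Steap3 had the higher mean in both groups (21.5 and 38.8, beside 18.3 and 12.6 for Slc40a1). In controls no neighbours in the order per kilobase overlapped between libraries. In compressed cells Tfrc (65.9 to 105) overlapped Slc11a1 (69.8 to 82.7), Slc11a1 overlapped Blvrb (45.8 to 70.3), and Slc40a1 (4.06 to 6.37) overlapped Steap3 (3.84 to 4.66). Only the first of these overlaps was there without compressed replicate 6, with Tfrc at 76.1 to 105 and Slc11a1 at 69.8 to 82.7. In the other 5 compressed libraries Blvrb was at 45.8 to 47.5, below Slc11a1, and Slc40a1 was at 5.08 to 6.37, above Steap3. In replicate 6 itself Slc11a1 was at 73.2 and Blvrb at 70.3, and Slc40a1 was at 4.06 and Steap3 at 4.21.

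The place of compressed replicate 6 differed between the genes. Relative to the mean of the other 5 compressed libraries it was higher on the log2 scale by 0.66 in Fth1, 0.58 in Blvrb and 0.47 in Ftl1, whose transcripts are 929 to 1028 bases long. It was at 0.14 in Hmox1, -0.054 in Slc11a1, -0.23 in Slc11a2, -0.49 in Slc40a1, -0.38 in Tfrc and -0.57 in Ireb2, whose transcripts run to 5770 bases. Steap3, at 0.019 with an annotated length of 5158 bases, did not follow the order by length. Elsewhere the order was not strict: Tfrc, with 4890 bases, was less low than Slc40a1 with 3370. Blvrb, with 1028 bases, was higher than Ftl1 with 968. In an alternative fit the trend of each library with annotated transcript length, taken over all genes, was removed before the test. This shift is an average over genes of similar length, so the part of length in a single gene was not measured. It also takes out any difference between the groups that goes with length. The log2 fold changes were then 1.56 for Hmox1, 0.52 for Fth1, 0.43 for Blvrb, 0.16 for Ftl1, -0.19 for Tfrc and -0.79 for Steap3, and the same 9 genes were called.

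**Figure D4:**
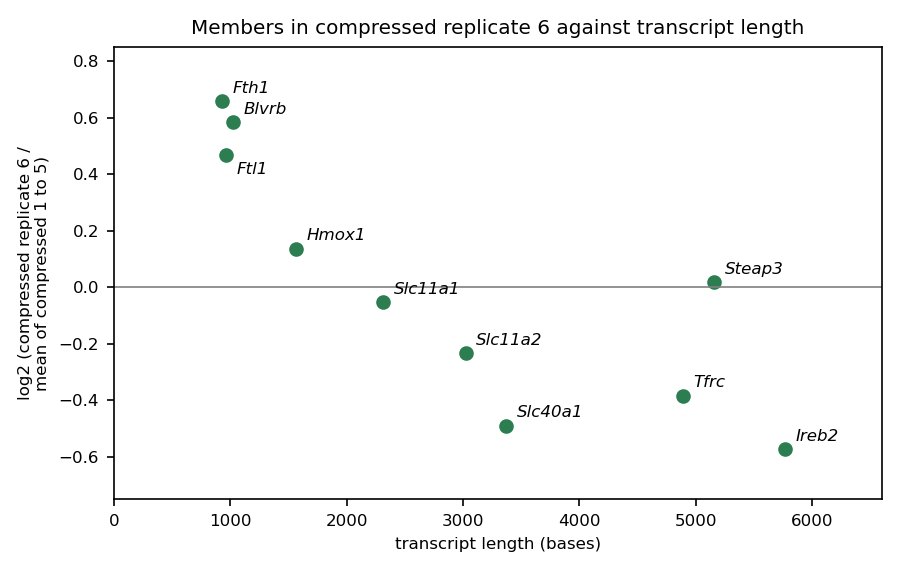
Log2 ratio of compressed replicate 6 to the mean of compressed replicates 1 to 5 for each gene, against the length of its transcript in bases. Fth1, Blvrb and Ftl1, the 3 shortest, lie at 0.47 to 0.66, Ireb2 lies at -0.57, and Steap3 lies near 0 in spite of its annotated length.

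The wider pathway was described with 8 lists of 93 genes, the 10 included, of which 79 were tested. In these 79 genes, 23 were higher and 22 lower, with a median log2 fold change of -0.081. Without the 10, 16 of 69 were higher and 20 lower. Without compressed replicate 6, 26 of the listed genes were called higher and 37 lower. Counts by list are read beside the shares over all genes given above, and none is a test of the list.

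Of 4 heme degradation genes, 3 were higher (Hmox1, Blvrb and Blvra) and 0 lower. Blvra, the other biliverdin reductase, was at the edge of the threshold, with a log2 fold change of 0.20 (adjusted p = 0.0499), or 0.11 without compressed replicate 6 (adjusted p = 0.00471). Its call was lost with DESeq2 (adjusted p = 0.0562), without a low-count filter (0.0928), with a replicate block (0.0716) and with library size alone (0.158) or RLE factors (0.0528) as the scaling, and when any 1 of the 6 controls or of compressed replicates 1 to 3 was left out (up to 0.107). Of 8 heme synthesis enzymes, 2 were higher and 2 lower, and 5 were lower without compressed replicate 6. Alas1, the first and rate-limiting enzyme, rose by 0.41 on the log2 scale (SE 0.038), as did Ppox by 0.43, while Alad, the second enzyme, fell by 0.68 (SE 0.10) and Fech, which inserts the iron, fell by 0.19. All compressed libraries lay below all controls for Fech, and without compressed replicate 6 its log2 fold change was -0.18 (adjusted p = 0.000127). With the length trend removed the log2 fold change of Fech was -0.12 and was not called (adjusted p = 0.313). Compressed replicate 6 was at -0.088 on the log2 scale from the mean of the other 5 for Fech before that removal. Of 9 tested heme and hemoglobin transport genes, 1 was higher and 4 lower (2 and 4 without compressed replicate 6). Slc48a1, which moves heme out of the phagolysosome, rose by 0.27, and the heme exporter Flvcr1 fell by 0.32. Tmem14c and Abcb10, mitochondrial proteins of the heme pathway, fell by 0.34 and 0.31. Cd163, Hp and Hpx, which capture hemoglobin and heme, were too low to be tested.

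Of 13 tested iron uptake and reduction genes, 6 were higher and 4 lower. The largest increase among those named was in Lcn2, lipocalin 2, which binds the iron carriers of bacteria: it had a mean of 104 ± 18.7 CPM in compressed and 30.8 ± 5.08 CPM in control cells (SD, n = 6 each), with a log2 fold change of 1.75 (adjusted p = 1.39e-07). Its reported receptor Slc22a17 rose by 0.50. Hfe, the hemochromatosis protein that binds the transferrin receptor, fell by 0.51, and Slc39a14, an importer of free iron, fell by 0.27, a call lost without control replicate 1 or 2 (adjusted p 0.0657 and 0.0528). Of 8 tested storage and export genes, 4 were higher and 1 lower (5 and 3 without compressed replicate 6). Besides Fth1, Ftl1 and Slc40a1, Cp was higher. Cp encodes ceruloplasmin, the ferroxidase that works beside ferroportin, and had 25.7 ± 4.75 CPM in compressed and 9.11 ± 0.925 CPM in control cells (SD, n = 6 each; log2 fold change 1.50, adjusted p = 1.97e-07). Nuak2, a kinase on the list, fell by 0.25. Hamp, the gene of hepcidin, which drives ferroportin to degradation, was too low to be tested.

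Of 7 iron sensing genes, 1 was higher and 1 lower (2 and 3 without compressed replicate 6). Fbxl5, the iron-binding subunit of the ligase that degrades Ireb2 protein, rose by 0.24, and Cul1, another subunit of it, fell by 0.33. Of 23 genes of mitochondrial iron and iron-sulfur clusters, 4 were higher and 7 lower, and 15 were lower without compressed replicate 6. Slc25a37, mitoferrin 1, which brings iron into the mitochondrion, rose by 0.40, and the cluster assembly factors Iba57 and Nfu1 rose by 0.45 and 0.37. Nfu1 was at 55.6 CPM in compressed replicate 6 and at 35.7 to 37.8 CPM in the other 5, and its log2 fold change without replicate 6 was 0.24. The scaffold Iscu fell by 0.31, a call lost without control replicate 3 or compressed replicate 3, 4 or 5 (adjusted p 0.0506 to 0.0536). Of 7 tested heme and oxidant sensing factors, 2 were higher and 3 lower. Maff and Mafg, small Maf proteins that pair with both NRF2 and BACH1, rose by 1.37 and 0.41, and Mafk, the other small Maf on the list, fell by 0.30. Keap1, which holds NRF2 down, fell by 0.43, and Nr1h3, the oxysterol receptor, fell by 0.28. Nfe2l2, which encodes NRF2, and Bach1, the heme-binding repressor of Hmox1, did not pass the test: Nfe2l2 had a log2 fold change of 0.0012 (95% interval -0.086 to 0.088, adjusted p = 0.984), or 0.012 without compressed replicate 6, and Bach1 of -0.11 (95% interval -0.41 to 0.20, adjusted p = 0.564), or 0.016 without compressed replicate 6.

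**Figure D5:**
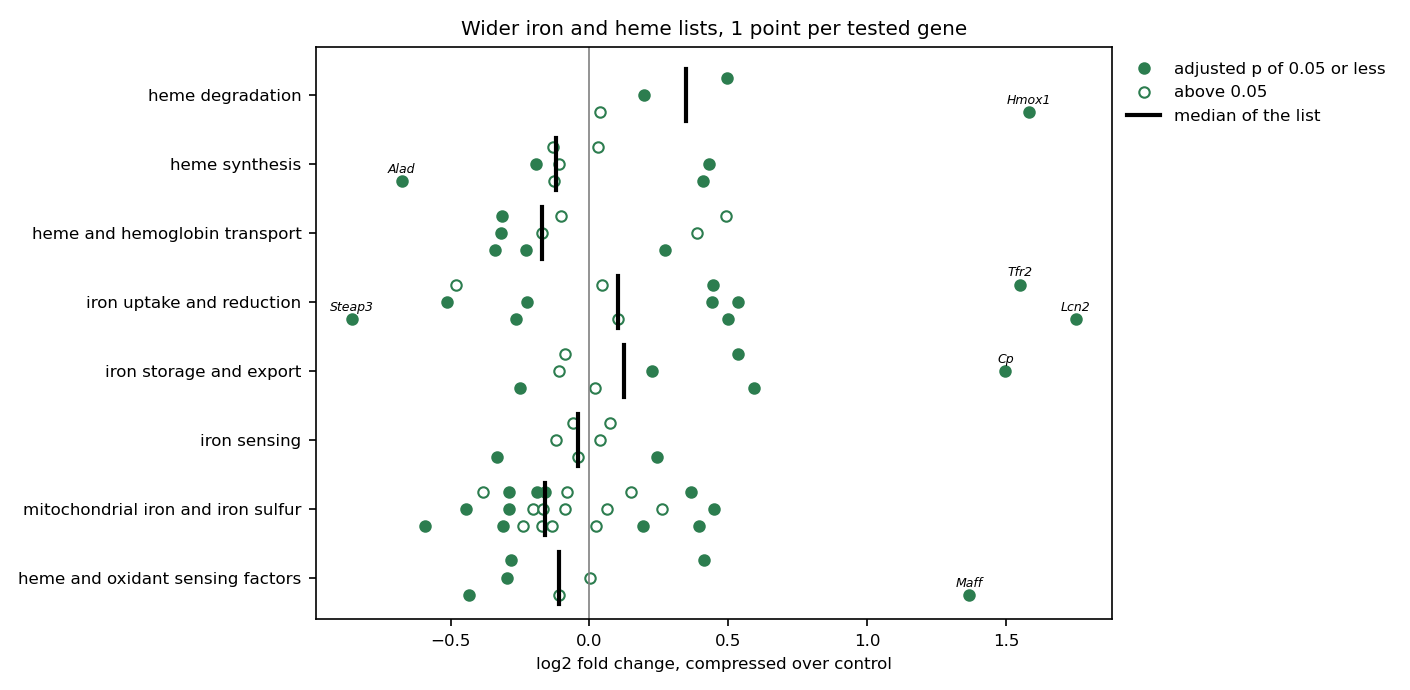
Log2 fold change, compressed over control, of the 79 tested genes of the 8 iron and heme lists, 1 list per row, with filled points for an adjusted p of 0.05 or less, open points for those above it and a bar at the median of each list. Lcn2 (1.75), Hmox1 (1.58), Cp (1.50) and Maff (1.37) lie far to the right, and Steap3 (-0.85) and Alad (-0.68) to the left. Tfr2, also far to the right, was under 1 CPM.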

How the data were processed

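RNA from 6 compressed and 6 control samples was sequenced. The authors deposited whole-number counts per Ensembl gene, in which no normalization was found. Per the labels, alignment used STAR 2.7.2 and GRCm39. The counting program, strand setting and annotation release: not given in the sources used here. Gene names, transcript lengths and positions came from GENCODE M21 (GRCm38) by ID, which named 51948 of 56941 IDs (99.5% of counts). The 149 list and marker genes all matched.

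The tools were R 4.3.3, edgeR 4.0.16, limma 3.58.1, DESeq2 1.42.0 (an alternative) and Python 3.11.15. After filterByExpr (minimum count 10) and TMM scaling, compressed and control libraries were compared by the quasi-likelihood F test of edgeR with no covariate, and a Benjamini-Hochberg adjusted p up to 0.05 was called. SE is the size of the log2 fold change divided by the root of F, and so restates the test. The procedure was tested on simulated data with no length trend and no outlying library, so that test does not cover the behaviour of compressed replicate 6. Libraries of a group differed by more than counting error (chi-square per gene at least 2.21). Ratios and levels per length carry no test.

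The members and lists were chosen with earlier results of these data known. Named genes are the 10 members, Aco1, Hmox2, Bach1 and Nfe2l2, and for each list at most 3 called genes in each direction, the largest changes among those averaging 1 CPM or more in either group, of which 2 are not reported here. The alternatives were DESeq2, RLE factors, library size alone, 2 other low-count filters, a replicate block, an adjusted p of 0.01, a transcript-length correction and leaving out each library. The length correction without compressed replicate 6 was added after the data were seen.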

Additional observations from a re-analysis of the deposited data

Results flagged for a closer look

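In each group of 6, the gap of the highest or lowest library to its neighbour was taken as a fraction of the range of the group, for 40 named genes (80 groups). It passed Dixon's 95% limit in 19 groups, where chance gives about 1 in 20, and 17 of the 19 were compressed replicate 6. This library was the highest of its group for Fth1 (0.829), Ftl1 (0.73), Blvrb (0.929), Blvra (0.785), Alad (0.887), Tmem14c (0.774), Slc22a17 (0.645), Nfu1 (0.894), Iscu (0.705), Maff (0.682) and Hmox2 (0.81). It was the lowest for Ireb2 (0.748), Slc39a14 (0.819), Cul1 (0.713), Mafk (0.706), Aco1 (0.778) and Bach1 (0.743). In the controls, replicate 1 was lowest for Blvra (0.699) and replicate 3 highest for Alas1 (0.654). The members Fth1, Ftl1, Blvrb and Ireb2 are among these. Hmox1, Steap3, Slc11a1, Slc11a2, Slc40a1 and Tfrc are not.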

How the results depend on the processing

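Hmox1, Fth1, Slc40a1, Slc11a1, Slc11a2, Blvrb and Steap3 kept their direction and their call in 21 of 21 alternatives. Hmox1 ranged from 1.52 to 1.60 and Steap3 from -0.92 to -0.79 on the log2 scale. Ftl1 was called in 10 of 21 (0.13 to 0.26, adjusted p up to 0.109, the highest with library size alone) and Tfrc in 8 of 21 (-0.30 to -0.17, adjusted p up to 0.0886). Of the 10 genes, 1 instead of 2 was called lower with no low-count filter, with a mean normalized count over 50 and at an adjusted p of 0.01, and 1 to 2 when each library was left out in turn. Those called higher were 6 instead of 7 with library size alone, with no low-count filter and at an adjusted p of 0.01. They were 6 to 7 when each library was left out in turn. The listed genes called lower were 22, or 20 to 37 with a library left out; 37 was reached without compressed replicate 6, and also with the length trend removed as well. In that last setting 4925 genes were called lower over all genes, against 3283. With library size alone 3079 genes were higher and 4050 lower. The cause of these differences was not tested. Uncalled genes changed sign: Ireb2 to 0.037 and Bach1 to 0.016 without compressed replicate 6 (range with a library left out -0.080 to 0.037 and -0.16 to 0.016). Hmox2 went to -0.026 with library size alone, -0.072 without compressed replicate 6 and -0.044 with the length trend also removed (-0.072 to 0.068 with a library left out). Nfe2l2 went to -0.014 with DESeq2, -0.0073 with RLE factors, -0.061 with library size alone, -0.0052 with no filter and -0.018 to 0.012 with a library left out. Samples of the same number did not deviate together (correlation -0.12 to 0.040 across genes). This cannot show whether they were handled together, which the sources used here do not say. With a replicate block 6393 genes and 9 of the 10 were called. Averaged over genes, the spread between libraries of a group exceeded counting error. The share of counting error in each gene was not measured, and it can be larger in genes with few counts.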
